A study of Rattus norvegicus with 8 samples.

Results

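The let-7 family is a group of miRNAs, short RNAs that pair with messenger RNAs and lower their translation and stability. Its members share a seed, the stretch near the 5′ end that does most of this pairing, and differ in a few bases outside it. Let-7 is known as a regulator of developmental timing and cell differentiation, with the RNA-binding protein Lin28, the growth regulator Hmga2 and Ras genes among its classic partners and targets. In many adult tissues it is abundant, and proliferating or undifferentiated cells usually hold less of it. On the rat array used here, the members were chosen by name as the 5p strands listed under rno-let-7, which gave 8 of the 758 rat miRNAs: rno-let-7a-5p, rno-let-7b-5p, rno-let-7c-5p, rno-let-7d-5p, rno-let-7e-5p, rno-let-7f-5p, rno-let-7g-5p and rno-let-7i-5p (the prefix for rat is left out below). The 8 members were detected on each of the 8 arrays.

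The study asked which RNAs differ during wound repair of the prostatic urethra. Male SD (Sprague Dawley) rats, 10 to 12 months old, were operated on and their prostatic urethral tissue was taken on day 5. In the TULP group (4 animals, 1 array each), a thulium laser had vaporized the epithelium in a model of transurethral laser prostatectomy, and the Sham group (4 animals, 1 array each) had only the abdominal incision. Groups were read from the sample titles, since the descriptions of the TULP samples name sham surgery while their titles, tissue names and treatment fields name trauma tissue. Whole tissue was profiled, and in such samples fewer cells of a type and less RNA per cell cannot be told apart.

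The mature sequences show how close the members are, which bears on every value below. They are RefSeq sequences (GRCr8), with the seed, bases 2 to 8, in capitals:
let-7a-5p: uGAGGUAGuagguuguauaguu
let-7b-5p: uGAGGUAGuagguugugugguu
let-7c-5p: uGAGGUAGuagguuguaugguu
let-7d-5p: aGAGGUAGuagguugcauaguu
let-7e-5p: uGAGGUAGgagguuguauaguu
let-7f-5p: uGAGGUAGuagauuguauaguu
let-7g-5p: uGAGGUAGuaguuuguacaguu
let-7i-5p: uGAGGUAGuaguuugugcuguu
miR-98-5p: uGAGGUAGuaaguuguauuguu

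All 8 members and miR-98-5p, a relative under another name, are 22 bases long and carry the seed GAGGUAG. Counted from the 5′ end and with the let-7a-5p base first, let-7c-5p differs from let-7a-5p by A19G, let-7e-5p by U9G and let-7f-5p by G12A. These 3 members are thus 1 base away from let-7a-5p. let-7b-5p differs by A17G and A19G, let-7d-5p by U1A and U16C, and let-7g-5p by G12U and U18C. let-7i-5p is farthest from let-7a-5p, with the 4 changes G12U, A17G, U18C and A19U.

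Each member was read by 2 probes, DNA oligos complementary to its 3′ part. One probe per member is shown here, since the probes of different members differ in only a few bases. Each runs 5′ to 3′ as in the scanner files, and capitals mark the bases that do not pair with let-7a-5p:
let-7a-5p probe: aactatacaacctactacct
let-7b-5p probe: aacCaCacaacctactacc
let-7c-5p probe: aacCatacaacctactacc
let-7d-5p probe: aactatGcaacctactacc
let-7e-5p probe: aactatacaacctCctacc
let-7f-5p probe: aactatacaaTctactacctc
let-7g-5p probe: aactGtacaaActactacctc
let-7i-5p probe: aacAGCacaaActactacctc

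The probes are 18 to 21 bases long, and each of the 16 matched its own miRNA without a mismatch. The let-7a-5p probes have 1 mismatch to let-7c-5p, let-7d-5p, let-7e-5p and let-7f-5p. The let-7b-5p, let-7c-5p, let-7d-5p, let-7e-5p and let-7f-5p probes each have another member 1 mismatch away. The let-7g-5p and let-7i-5p probes have no other member closer than 2 mismatches. How much signal a probe takes from a neighbouring member was not tested, and the array has no control for it, so the values below are those of the probes and not of pure miRNAs.

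**Figure D1:**
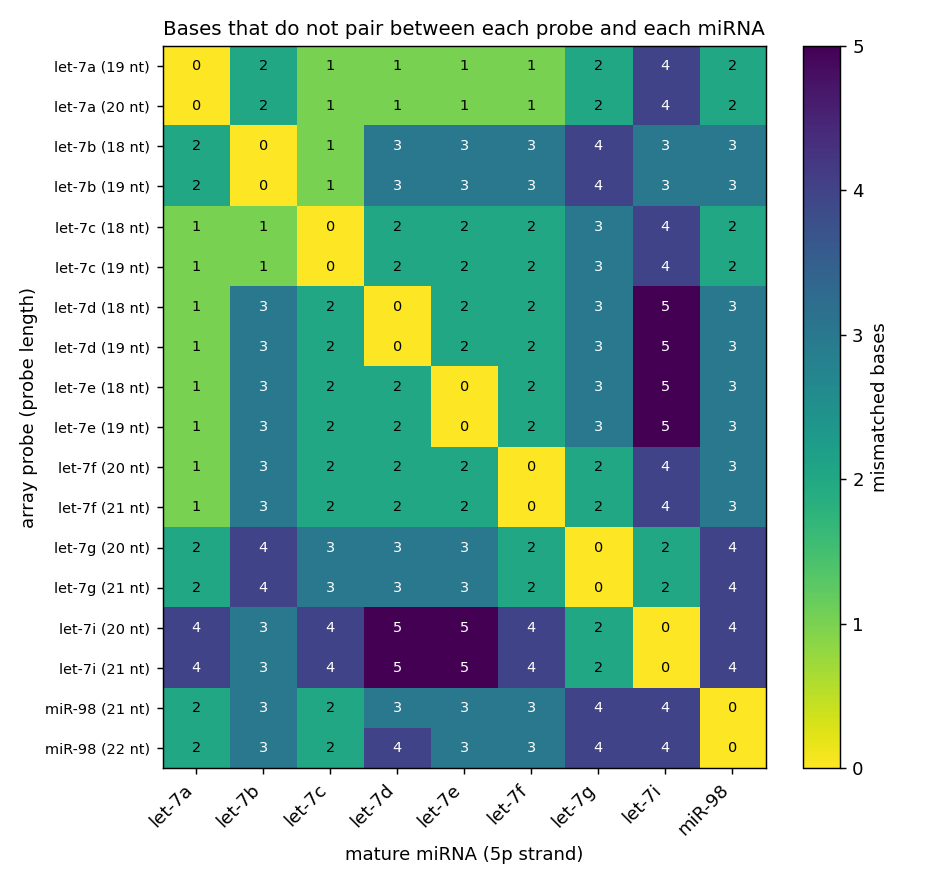
Number of bases that do not pair between each array probe (rows, with its length in nucleotides) and each mature miRNA (columns) over the stretch the probe covers. The let-7g and let-7i probes have at least 2 mismatches to any other member, and the probes of the other 6 members have at least 1 other member at 1 mismatch.

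The array also held probes for 4 miRNAs annotated on the strand opposite to let-7 genes, miR-3596a to miR-3596d, and the longest probe of each carries the letters of a let-7 member instead of their complement. The miR-3596a probe, shown as an example of this opposite orientation, has the letters of let-7a-5p:
miR-3596a probe: tgaggtagtaggttgtatag
None of the 4 was detected on any array, and 0 of their 80 probe readings (10 probes on 8 arrays) exceeded 3 times the error.

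let-7g-5p was lower in the TULP group before normalization and passed limma's test after quantile normalization over the rat miRNAs. None of the other 7 members passed that test in this setting. let-7c-5p passed with several of the other settings and each of the other members with fewer, as given below. As a proportion of the let-7 signal, let-7g-5p was also lower (relative change -16.6%), but let-7e-5p changed more, by 21.1% in the opposite direction. With some other settings the groups overlapped for the let-7g-5p proportion. Before normalization, the signal (a background-subtracted brightness in arbitrary units) was lower on average in the TULP group for all 8 members. let-7a-5p read 798, 994, 1040 and 1425 in the Sham group against 808, 624, 574 and 595 in the TULP group. let-7b-5p read 1497, 1946, 1784 and 2831 in the Sham group against 1285, 1089, 1083 and 1056 in the TULP group. let-7c-5p, which differs from let-7a-5p in the 1 base marked in its probe, read 1773, 2284, 2190 and 3221 against 1601, 1255, 1179 and 1157. The groups overlapped for let-7a-5p, where TULP replicate 1 lay above Sham replicate 1, and were apart for let-7b-5p and let-7c-5p.

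let-7d-5p read 314, 381, 411 and 604 in the Sham group against 337, 282, 271 and 263 in the TULP group. let-7e-5p read 205, 268, 290 and 393 in the Sham group against 257, 199, 183 and 182 in the TULP group. let-7f-5p read 434, 531, 593 and 753 against 466, 371, 323 and 360. In these 3 members TULP replicate 1 lay above Sham replicate 1, so the groups overlapped.

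let-7g-5p read 253, 291, 344 and 416 in the Sham group against 178, 160, 143 and 159 in the TULP group. Every TULP array lay below every Sham array, with a wide gap between the lowest Sham and the highest TULP value. let-7i-5p read 363, 464, 486 and 650 in the Sham group against 358, 319, 292 and 293 in the TULP group, and its groups were apart only narrowly. Groups thus did not overlap for 4 of the 8 members, let-7b-5p, let-7c-5p, let-7g-5p and let-7i-5p, all lower in the TULP group, against 29.1% of the 151 tested miRNAs.

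**Figure D2:**
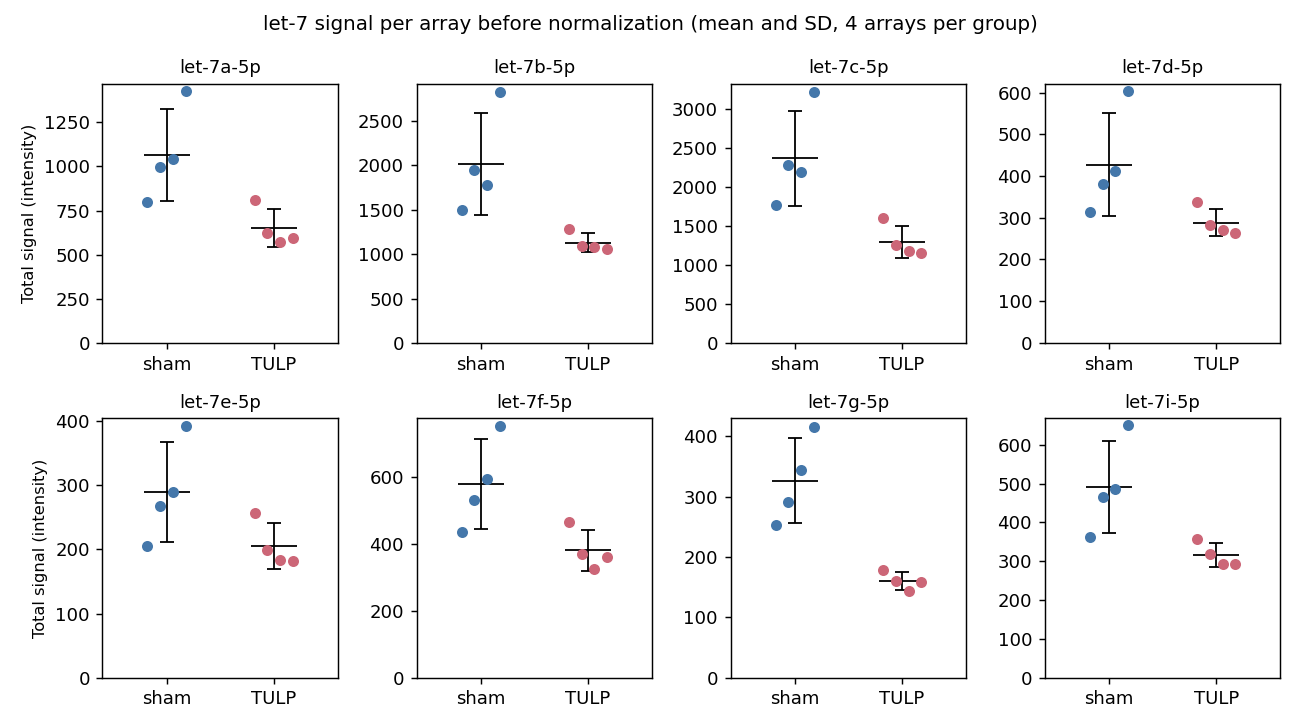
Total signal of each let-7 member before normalization (y axis, intensity, from 0), 1 point per array, with the group mean and SD as black bars (4 arrays per group). Sham replicate 4 is the highest point in every panel, and let-7g-5p has its 4 TULP points between 143 and 178, below its Sham points at 253 to 416.

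These values moved with the brightness of the whole array. Over its detected miRNAs, a Sham array summed to 21075 to 37357 and a TULP array to 16787 to 19464, a log2 difference of -0.64 (p = 0.0286 in a two-sided exact permutation test, the smallest value possible with this design). When any single array was left out, that p was 0.0571, the smallest then possible. The labelling spike-ins, control RNAs put into each labelling reaction, read 8.04 to 8.69 (log2 signal) on the Sham arrays and 8.44 to 8.63 on the TULP arrays, with overlap. The cause of the lower sum was not tested. All arrays lay on 1 slide, with Sham replicate 4 and TULP replicates 1 to 3 in the first row and the others in the second row. Marker miRNAs of epithelium (6 of 8 on every array), smooth muscle (2 of 2) and striated muscle (4 of 6, with miR-499-5p and miR-208a-3p detected on none) were present. The leukocyte markers took 0.142 to 0.218% of the summed signal in the Sham group and 0.323 to 0.589% in the TULP group. After quantile normalization 2 of their 4 tested members rose, against 13.9% of all tested miRNAs. Another, miR-150-5p, went the other way without passing (log2 difference -0.59, limma adjusted p = 0.0737). The striated muscle markers took 18.6 to 26.6% and 11.1 to 20.9%, and 3 of their 4 tested members fell, against 16.6% of all tested miRNAs. TULP replicate 1 stood apart from the other TULP arrays, with 4.02% against 1.64 to 2.10% for the epithelial markers (1.91 to 2.86% in the Sham group), 4.89% against 2.34 to 3.48% for smooth muscle and 11.1% against 15.6 to 20.9% for striated muscle. The part of these markers in the let-7 values was not tested.

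As a share of the summed signal of its own array, which no scaling of the array can move, the family took 26.7, 28.3, 24.4 and 27.6% on the Sham arrays. On the TULP arrays it took 27.2, 24.5, 24.1 and 23.3%. The means were 26.7% ± 1.69 and 24.8% ± 1.68 (SD, n = 4 per group), and the groups overlapped. The highest TULP share, 27.2%, was that of replicate 1, whose markers stood apart. Without that array the TULP mean was 24.0% and the difference -2.76 percentage points. The groups still overlapped then, since TULP replicate 2 (24.5%) lay above Sham replicate 3 (24.4%). When each of the 8 arrays was left out in turn, the difference ranged from -2.76 to -1.45 percentage points. The difference of -1.97 percentage points was -2.27 within the first slide row (1 Sham and 3 TULP arrays) and -3.17 within the second (3 Sham arrays and 1 TULP array). With the mean of processed spot signals in place of the rebuilt totals it was -3.63 percentage points (26.7 against 23.0%), and with the totals stored in the files -2.64. It was smaller, -1.44, with the background corrected by normexp (offset 50). With control features kept in the quantile normalization it was -1.74 on the linear scale and -1.90 on the log2 scale. let-7g-5p was the only member whose own share of the summed signal did not overlap between groups, at 1.11 to 1.20% on the Sham arrays and 0.853 to 0.915% on the TULP arrays, while 15.2% of the tested miRNAs had a lower share without overlap.

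**Figure D3:**
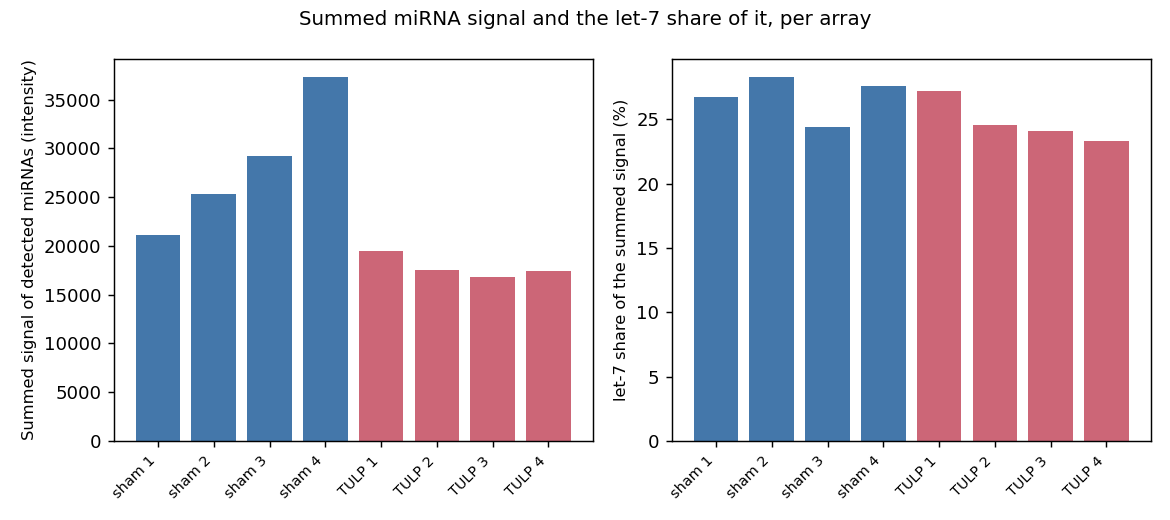
Left, summed signal of the detected miRNAs on each array (intensity). Right, the percent of that sum contributed by the 8 let-7 members. The sums are 21075 to 37357 in the Sham group and 16787 to 19464 in the TULP group, and the let-7 share lies between 23.3 and 28.3% on all arrays.

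For the comparison across miRNAs, signals were quantile normalized, which gives every array the same set of values and keeps only the rank of each miRNA. A normalized difference is therefore relative to the other miRNAs of the array. let-7g-5p fell. On the log2 scale it was 8.08, 8.01, 8.08 and 8.17 in the Sham group against 7.59, 7.59, 7.40 and 7.59 in the TULP group, without overlap (14.6% of the tested miRNAs were lower without overlap). The group means were 8.08 ± 0.07 and 7.54 ± 0.09 (SD, n = 4 each), which is 1.46-fold lower in the TULP group (log2 difference -0.54, SE 0.09, limma adjusted p = 0.00539). Its rank among the 758 miRNAs was 20 to 22 on the Sham arrays and 28 to 29 on the TULP arrays. Within the slide rows the difference was -0.64 in the first and -0.47 in the second.

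No other member passed the adjusted p in this setting. let-7c-5p, which ranked 1 to 4 among the miRNAs of an array, was 11.01 ± 0.31 against 10.78 ± 0.15 (SD, n = 4 each), a difference of -0.23 (SE 0.17, limma adjusted p = 0.387). Without Sham replicate 2 that difference was -0.06. It was -0.55 with control features kept in the quantile normalization on the linear scale (limma adjusted p = 0.0330), -0.58 with them kept on the log2 scale (limma adjusted p = 0.0331) and -0.58 with the deposited normalized values (limma adjusted p = 0.0354), so let-7c-5p passed in these 3 settings. let-7d-5p was 8.41 ± 0.11 and 8.53 ± 0.04, a difference of 0.12 (SE 0.09, limma adjusted p = 0.375). let-7a-5p differed by 0.06 (SE 0.15), let-7b-5p by 0.06 (SE 0.13), let-7e-5p by -0.01 (SE 0.09) and let-7i-5p by -0.02 (SE 0.07), with limma adjusted p-values of 0.827 to 0.960. let-7f-5p was the miRNA of rank 12 on each of the 8 arrays, so that normalization gave it 8.90 on all of them and a difference of 0. This is a property of the rank scale, since its signal before normalization ranged from 323 to 753.

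Thus 1 of the 8 members was lower at the adjusted p, against 16.6% of the 151 tested miRNAs, and 0 were higher, against 13.9%. With the added demand of a more than 2-fold change, 0 members were called in either direction, against 3.97% lower and 5.3% higher. Without that demand and without adjustment, let-7g-5p was again the only member with p below 0.05 in limma. The mean of the 8 differences was -0.07 and their median -0.01, beside a median of -0.02 over all tested miRNAs. Without let-7g-5p the mean was 0.00.

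Both probes of let-7g-5p moved alike. When single probes were normalized and tested, the 20-base probe was lower by a log2 difference of -0.54 (limma adjusted p = 0.00675) and the 21-base probe by -0.43 (limma adjusted p = 0.00982). They were 2 of the 16 let-7 probes, and no probe of another member passed, against 17.9% of the 251 tested probes called lower. Before normalization the let-7g-5p probes differed by -1.03 and -1.003. The probes of the other members differed by -0.42 to -0.86 before normalization, and the 2 probes of a member lay within 0.08 of each other or closer.

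The scaling decided how many other members passed. Scaled to the 75th percentile of the miRNAs detected on all arrays, let-7c-5p (-0.33, limma adjusted p = 0.0268) passed beside let-7g-5p (-0.49), where 18.5% of the tested miRNAs were called lower. With no normalization, let-7a-5p (-0.69), let-7b-5p (-0.80), let-7c-5p (-0.85) and let-7g-5p (-1.01) passed, and the median of all tested miRNAs was -0.55. That count of 4 members stood against 31.8% of the tested miRNAs called lower. With scaling by the labelling spike-ins, all 8 members passed, from -0.70 for let-7e-5p to -1.24 for let-7g-5p. On that scale the median of all tested miRNAs was -0.78 and 54.3% were called lower. let-7g-5p passed in each of the 25 alternatives run, with differences of -0.42 to -1.24 and adjusted p-values of 0.000981 to 0.0297. The sign of let-7a-5p, let-7b-5p, let-7d-5p and let-7e-5p depended on the alternative, so no direction is given for them.

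**Figure D4:**
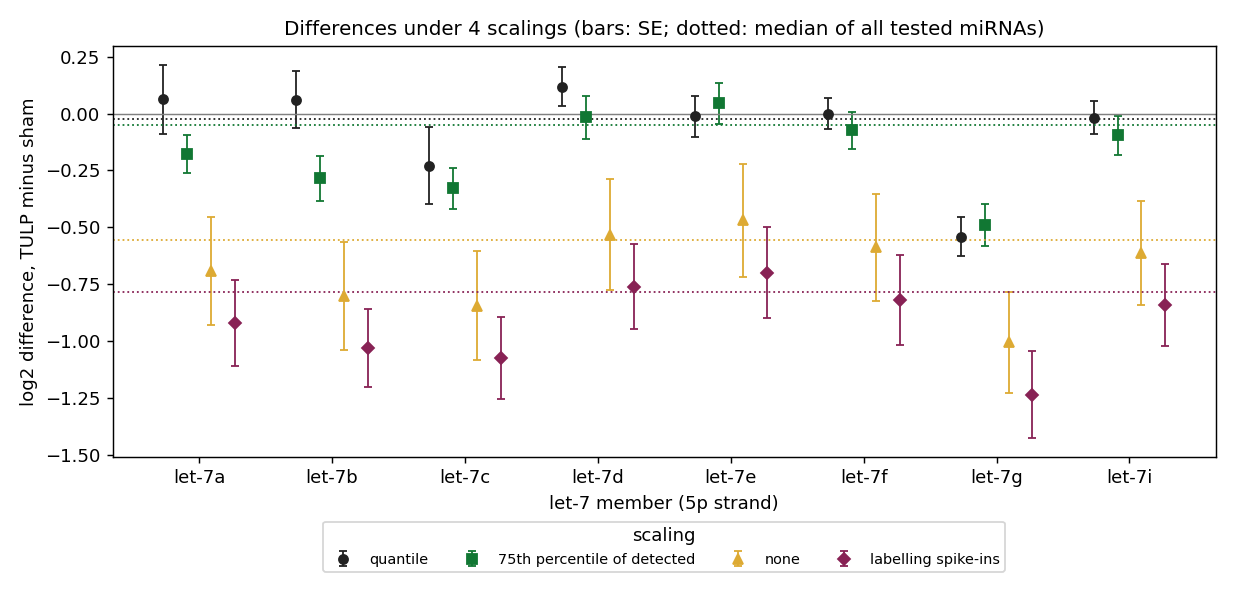
log2 difference between the TULP and Sham groups (y axis) for each let-7 member under 4 scalings, with the SE as bars and the median of the 151 tested miRNAs under each scaling as a dotted line. let-7g lies below the median under each of the 4, while let-7d, let-7e, let-7f and let-7i stay near or above it.

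Proportions within the family are independent of the scaling of the array, so the members were also compared in this way. A proportion is the signal of a member as a percent of the summed signal of the 8 on that array. Since probes differ in affinity, it is compared between arrays for 1 member and not between members. let-7g-5p made up 4.49, 4.07, 4.82 and 4.04% in the Sham group against 3.37, 3.72, 3.54 and 3.91% in the TULP group. All TULP values lay below the Sham values, and the means were 4.35% ± 0.37 and 3.63% ± 0.23 (SD, n = 4 per group), a relative change of -16.6%. let-7c-5p made up 31.4, 31.9, 30.7 and 31.3% in the Sham group against 30.3, 29.2, 29.1 and 28.5% in the TULP group, also without overlap.

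In the opposite direction, let-7e-5p made up 3.64, 3.74, 4.06 and 3.82% in the Sham group against 4.86, 4.62, 4.53 and 4.48% in the TULP group. Its TULP values all lay above its Sham values, a relative change of 21.1%. let-7d-5p made up 5.57, 5.33, 5.76 and 5.87% in the Sham group against 6.38, 6.57, 6.70 and 6.48% in the TULP group, a relative change of 16.0% without overlap. For let-7a-5p, let-7b-5p, let-7f-5p and let-7i-5p the groups overlapped. Groups were therefore apart for 4 of the 8 members, and when the signal of each of the other 143 tested miRNAs was divided by the same let-7 sum they were apart for 32.2%.

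Within each slide row the 4 proportions kept their sign, and so did those of let-7a-5p, let-7b-5p, let-7f-5p and let-7i-5p. In each row 1 of the groups was a single array. The difference for let-7g-5p was -0.498 percentage points in the first and -0.554 in the second row, and that for let-7c-5p -1.76 and -2.87. For let-7d-5p it was 0.681 and 0.925 percentage points, and for let-7e-5p 0.848 and 0.663. No test was made on proportions, which are bound to each other by their sum. Without Sham replicate 3, groups were apart for 7 members, all but let-7b-5p. With control features kept in the quantile normalization, on either scale, and with the deposited values, groups were apart for let-7a-5p, let-7d-5p and let-7e-5p and overlapped for let-7c-5p and let-7g-5p. They were apart for 0 members when the background was corrected by normexp (offset 50). The share over miRNAs outside the family was not computed for these alternatives, so their counts have nothing to be set against. Groups also come apart more easily when an array is left out.

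**Figure D5:**
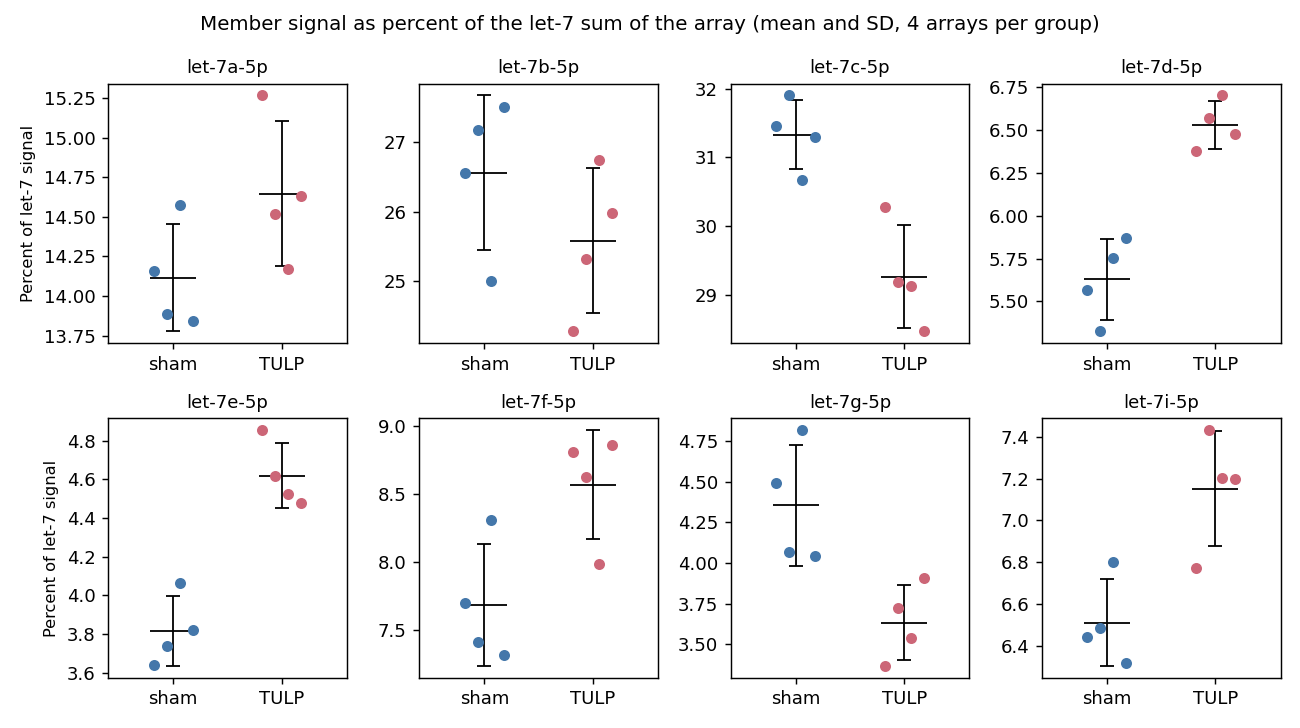
Signal of each let-7 member as percent of the let-7 sum of its array (y axes, each with its own range that does not start at 0), 1 point per array, with the group mean and SD as black bars (4 arrays per group). let-7c and let-7g have all TULP points below the Sham points, let-7d and let-7e have all TULP points above, and the other 4 overlap.

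The members were also compared in pairs, as the ratio of their signals on the same array, which needs no sum. let-7g-5p was lower in the TULP group relative to each of the 7 other members, from -0.16 against let-7c-5p to -0.54 against let-7e-5p on the log2 scale, and the groups did not overlap for 5 of these 7 pairs. Among the 21 pairs without let-7g-5p, the difference with the greatest size was -0.38, for let-7c-5p over let-7e-5p, and the groups did not overlap for 9. Among all 10153 pairs of the tested miRNAs outside the family they did not overlap for 27.8%. let-7b-5p and let-7c-5p, which are 1 base apart, had a ratio that differed by 0.04, and the ratio of let-7f-5p over let-7i-5p, 4 bases apart, differed by 0.02. The other pairs 1 base apart differed more. let-7a-5p differed by 0.15 over let-7c-5p and by -0.22 over let-7e-5p, both without overlap. Over let-7f-5p it differed by -0.10, with overlap.

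The 8 members come from 11 let-7 genes in RefSeq (GRCr8), and several members have more than 1. Mature let-7a-5p, let-7c-5p and let-7f-5p each come from 2 genes, so a signal cannot be assigned to either. In the rat build rn4 used by the scanner files, the let-7a-5p probe of 20 bases maps to chr8:44525787-44525806 and chr17:22119781-22119800, and the let-7c-5p probe of 19 bases to chr7:123700806-123700824 and chr11:16398282-16398300. The longer let-7f-5p probe maps to chr17:22120143-22120163 and chrX:41376951-41376971. let-7d-5p maps to chr17:22121911-22121928 beside a let-7a and a let-7f gene, let-7b-5p to chr7:123701215-123701232 beside a let-7c gene, let-7e-5p to chr1:56487152-56487169 and let-7i-5p to chr7:62755367-62755386. For let-7g-5p the files give no position. RefSeq places its gene, Mirlet7g, within the protein-coding genes Wdr82 and Rpl29 as annotated, with no other miRNA gene within 60 kb. Mirlet7i likewise has no miRNA neighbour within 60 kb and lies inside a protein-coding gene.

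The Mirlet7g hairpin (RefSeq, GRCr8, plus strand) is shown because its 2 arms were measured by separate probes, with both mature arms in capitals, let-7g-5p first:
Mirlet7g hairpin: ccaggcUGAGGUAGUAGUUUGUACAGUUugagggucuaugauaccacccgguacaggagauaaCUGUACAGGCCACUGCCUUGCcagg

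The 3p arms, which are usually degraded after the hairpin is cut, were almost absent from the signal. Of the 9 let-7 3p strands on the array, 8 were detected on 0 arrays, let-7g-3p included. let-7b-3p was detected on 2 Sham arrays and 1 TULP array. Of 264 probe readings of 3p strands, 6 exceeded 3 times the error. None was tested, and a difference between the groups in 3p strands was not detectable at this signal.

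miR-98-5p, the relative with the same seed, whose gene lies beside a let-7f gene inside Huwe1, was detected on all 8 arrays near the lower end of the detected range. Its signal before normalization was 10.3, 12.3, 13.2 and 16.4 in the Sham group against 12.7, 6.02, 5.12 and 9.34 in the TULP group, with overlap. The normalized difference was -0.31 (SE 0.31, limma adjusted p = 0.535).

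Several let-7 genes sit in clusters with miR-99, miR-100 and miR-125 genes and can be made from 1 long transcript with them. Of the 12 strands of these neighbours, miR-98-3p included, 6 were tested, 2 fell and 0 rose, beside 16.6% lower and 13.9% higher over all tested miRNAs. miR-100-5p, whose gene lies beside a let-7a gene, had signals of 49.97, 73.2, 70.9 and 111 in the Sham group against 42.4, 36.2, 34.2 and 35.7 in the TULP group, all TULP values being lower. Its normalized difference was -0.56 (SE 0.13, limma adjusted p = 0.0163), and it passed in each of the 25 alternatives. miR-99a-5p, whose gene lies beside a let-7c gene, fell by 0.27 on the log2 scale (SE 0.08, limma adjusted p = 0.0336). It did not pass without Sham replicate 1, 2 or 3 or TULP replicate 2 or 3 (limma adjusted p = 0.0512 to 0.0979), with the replicate number as a block (limma adjusted p = 0.111) or with the slide row as a block (limma adjusted p = 0.120).

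The neighbours of let-7e, miR-99b-5p and miR-125a-5p, differed by -0.42 (SE 0.19, limma adjusted p = 0.134) and 0.39 (SE 0.14, limma adjusted p = 0.0689), and neither passed. Over the 25 alternatives miR-99b-5p ran from -1.05 to 4.45, the latter with the stored totals, and passed in 4 of them. miR-125a-5p ran from -0.48 to 0.51 and passed in 1, without Sham replicate 4, so no direction is given for either. miR-125b-5p, which has a gene in the let-7a cluster and another in the let-7c cluster, differed by 0.00 (SE 0.12, limma adjusted p = 1.00). Over the 25 alternatives miR-125b-5p ran from -1.07 to 0.05. It passed in 3 of them: no normalization, the 75th percentile of all rat spots and the labelling spike-ins. miR-99a-3p was detected on 4 arrays and differed by 0.12 (SE 0.34, limma adjusted p = 0.879). The let-7 member of each of these clusters, let-7a-5p, let-7c-5p or let-7e-5p, did not pass after quantile normalization over the rat miRNAs, though each passed in some of the settings given above.

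Over the 8 arrays, the mean normalized log2 value of the members followed miR-652-3p (Pearson r = 0.85), miR-664-3p (r = 0.82), miR-145-5p (r = 0.79), miR-26a-5p (r = 0.79) and miR-200c-3p (r = 0.73) most closely among the 143 other tested miRNAs. It was least like miR-20b-5p (r = -0.89), miR-34a-5p (r = -0.76) and miR-19b-3p (r = -0.75). These values describe 8 arrays that share 1 slide and 1 normalization, and the family mean varied only between 9.01 and 9.21.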

How the data were processed

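RNA of 8 rats was hybridized to a 1-colour (Cy3) rat miRNA array. Per the file headers, the scans were quantified by Agilent Feature Extraction (version 10.7.1.1), and the deposited spot, probe and miRNA values are intensities, background subtracted and not normalized between arrays. The authors' table, used as an alternative, holds log2 values of 780 features that they quantile normalized with 22 control features. Its columns share 1 set of sorted values with a median of -3.32, and it ranks detected miRNAs as the signals do.

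Signals were rebuilt per miRNA as the sum over probes above 3 times their error (0.1 where none), which gave the detection calls of the files. The 758 rat miRNAs were quantile normalized, raised to a floor of 1.94, converted to log2 and, where detected on at least 4 arrays (151), tested with limma 3.58.1 in R 4.3.3 (group only), with Benjamini-Hochberg adjustment over the 151 at 0.05. Shares and proportions use signals before normalization, with SciPy 1.17.1 for the permutation test over 70 labellings. Spots were not saturated (0 of 12128 per array). The number of arrays limits the precision.

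Replicates are separate animals, and p-values set the difference between groups against the spread between animals. In limma that spread is in part shared over the tested miRNAs. The members, gene lists and tests were chosen with earlier results of these data known. A working list of members named 7, without let-7g-5p, but the rule on names gives 8, and the 8 were used. Named beside them were miR-98, the let-7 3p strands, genomic neighbours, and the 5 most and 3 least correlated miRNAs. miR-3596 probes were added after their values were seen. The steps were also run on simulated arrays with as many rises as falls. Those arrays did not hold the lower summed signal of the TULP group, so they cannot test the choice of scaling. Alternatives covered scaling, control features, background correction, probe summary, filters, floor, blocks, the methods' t-test and each array left out. RefSeq gave a mature sequence for 8 of 8 members, and no RefSeq coordinates are given because the files use rn4.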

Additional observations from a re-analysis of the deposited data

Results flagged for a closer look

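In 7 of 52 groups of 4 arrays, 1 array lay far from the other 3, where chance flags about 1 in 20. For 6 of them the other 3 arrays had the same normalized log2 value, because the miRNA held the same rank on them. TULP replicate 4 stood apart for let-7b-5p (10.32 against 10.69), let-7c-5p (10.56 against 10.86) and let-7i-5p (8.71 against 8.64). Sham replicate 2 stood apart for let-7c-5p (11.48 against 10.86), Sham replicate 4 for let-7d-5p (8.57 against 8.36) and TULP replicate 3 for let-7g-5p (7.40 against 7.59). Before normalization, the log2 signal of let-7b-5p on TULP replicate 1 was 10.33 against 10.04 to 10.09 on the other TULP arrays.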

How the results depend on the processing

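let-7g-5p kept its direction and its call in each of the 25 alternatives. let-7c-5p and let-7i-5p kept their direction, but their calls changed, with let-7c-5p passing in 8 and let-7i-5p in 2. let-7f-5p was lower in 11 and higher in 0, and passed in 2. For let-7a-5p, let-7b-5p, let-7d-5p and let-7e-5p the sign changed. The cause of these changes was not tested unless the scaling itself gives it. With no normalization, 4 members passed, the family mean was -0.69, and let-7a-5p (-0.69), let-7b-5p (-0.80) and let-7d-5p (-0.53) turned negative. With the 75th percentile of detected miRNAs, 2 passed, where 28 of the 151 tested miRNAs were called lower. The family mean was then -0.18, let-7a-5p was -0.18, let-7b-5p -0.28, let-7d-5p -0.016 and let-7e-5p 0.046. With the 75th percentile of all rat spots, 3 passed, where 44 of the 151 tested miRNAs were called lower. The family mean was then -0.75, let-7a-5p -0.75, let-7b-5p -0.85 and let-7d-5p -0.58. With the labelling spike-ins, 87 miRNAs (5 higher, 82 lower) and 8 members passed, against 46 (21 higher, 25 lower) and 1 in the main setting. There the family mean was -0.92, let-7a-5p -0.92, let-7b-5p -1.03 and let-7d-5p -0.76. With no normalization, 5 tested miRNAs were higher and 48 lower. With control features kept on the linear scale, 2 members passed (let-7c-5p and let-7g-5p), where 27 of the 151 tested miRNAs were called lower. The family mean was then -0.25, let-7a-5p -0.043 and let-7b-5p -0.31. With control features kept on the log2 scale, and with the deposited values in limma, 2 members passed. There 28 and 27 of the 151 tested miRNAs were called lower. In both, the family mean was -0.25, let-7a-5p -0.050, let-7b-5p -0.31 and let-7d-5p -0.0015. The methods' t-test on the deposited values, with the same differences, passed 4 members at the threshold after Benjamini-Hochberg. These were let-7c-5p, let-7f-5p, let-7g-5p and let-7i-5p, and 27 of the 151 tested miRNAs were called lower there. Normexp gave let-7a-5p -0.014 and 0 members with proportions apart. Mean processed spot signals gave let-7a-5p -0.014, let-7e-5p 0.013 and a summed signal difference of -0.53 with an exact permutation p of 0.0857. Stored totals left 28 miRNAs (8 higher, 20 lower). The slide row as a block also left 28 (13 higher, 15 lower), with let-7a-5p at -0.00089 and let-7b-5p at -0.039. Without let-7g-5p, an alternative added after seeing the data, the family mean was -0.0020 and its share fell by 1.70 percentage points.

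When each array was left out in turn, 28 to 57 miRNAs passed (28 without Sham replicate 3, 30 without TULP replicate 3), 1 member passed each time, and groups were apart in 4 to 7 proportions. For those proportions no share over other miRNAs was computed. The summed signal difference was -0.77 to -0.49, let-7a-5p -0.027 to 0.19, let-7b-5p -0.018 to 0.16 and let-7e-5p -0.058 to 0.030. The family mean was -0.11 to -0.05. For the replicate numbers shared by the groups, the correlations of the deviations were 0.128, -0.0968, 0.269 and -0.102. Sham replicates 1 and 3 were most like the TULP array of the same number, and Sham replicates 2 and 4 were not. So few arrays cannot settle whether the numbers pair them. With the replicate block, 37 miRNAs and 1 member passed, and let-7g-5p had a limma adjusted p of 0.0297. The share and the proportions are the same under every scaling of whole arrays by construction. Signal close to background limits what can be said of the 3p strands and miR-98-5p.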
